A study of Mus musculus with 23 samples.

Results

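Inflammatory cytokines and NF-kB feedback genes were examined in mouse macrophages, as 10 genes chosen by name. Each gene was present once in each of the 2 deposited expression tables (of 22524 and 25700 genes). They were the interleukin 1 family genes Il1a, Il1b, Il1rn and Il18, the cytokine genes Tnf, Il6 and Il10, and the feedback genes Nfkbia, Nfkbiz and Tnfaip3. Messenger RNA had been sequenced from 1000 sorted cells per library, and all 23 libraries came from C57BL/6 mice. In pups at day 7, 3 libraries of spleen red pulp macrophages with the genotype label vavCre (RPM_d7_vavCre) stood against 3 labelled WT (RPM_d7_WT). Bone marrow macrophages of the same age gave 3 BMM_d7_vavCre and 3 BMM_d7_WT libraries. A further day 7 spleen set held 2 libraries labelled Spic_KO (RPM_d7_Spic_KO) and 3 labelled Spic_WT (RPM_d7_Spic_WT). Adult spleen gave 4 libraries labelled TAM_CreERT2 (RPM_TAM_CreERT2) and 2 labelled TAM_WT (RPM_TAM_WT), so both adult groups carry TAM in the label. The study asked what PPARG does in these macrophages and profiled the few cells that persist without it. vavCre is a recombinase under the Vav promoter, which is active throughout the blood lineage and so not in macrophages alone, and CreERT2 is a recombinase that enters the nucleus on binding tamoxifen. The labels spell out neither TAM nor the floxed gene, and they do not say whether libraries of a group came from separate animals, so every p-value measures only the spread between these libraries.

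NF-kB is a family of transcription factors held in the cytoplasm by inhibitor proteins until receptors for microbial products, interleukin 1 or TNF signal through kinases. Freed NF-kB switches on cytokine genes together with genes whose products shut the pathway off again. In tissue macrophages these genes are also set by the resident cell's own program, and interleukins 1 beta and 18 are made as precursors that need a protease before release, so a messenger RNA level is not a level of secreted cytokine. PPARG, a lipid-activated nuclear receptor, is known from other macrophages as a brake on inflammatory genes.

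The first table (vavCre and WT, spleen and marrow) held 4262483 to 21744201 reads per library, and the second (Spic and adult groups) held 692904 to 6289360. The deposited values are normalised read counts, on a scale of its own in each table, so levels are compared within a table only. All 10 red pulp macrophage markers, such as Adgre1 and Vcam1, were above 0 in every group. Pparg, the receptor's gene, had 4002, 2496 and 2613 normalised counts in RPM_d7_vavCre, against 1691, 1550 and 2124 in RPM_d7_WT, so its level rose with the label (log2 change 0.74, limma adjusted p = 0.0313); gene-level values cannot show a missing exon. In the libraries labelled Spic_KO, Pparg had 26.0 and 21.7, against 330.4, 211 and 221 in Spic_WT (log2 change -3.33, limma adjusted p = 2.9e-05). Spic, the transcription factor gene of the label, still had 931 and 1236 in those libraries, against 3110, 1993 and 2203 in Spic_WT (log2 change -1.16, limma adjusted p = 0.0319). The libraries labelled Spic_KO thus held a lower but present Spic message and a Pparg message lower still. No label says which gene was deleted in them, and the name may stand for a Spic-driven recombinase rather than for a deletion of Spic, so the group is not read here as a Spic knockout.

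Scaled to exon length, the 10 genes spanned several orders of magnitude within a group. Il18 had the highest mean per kilobase in 7 of the 8 groups, at 3393 normalised counts per kb in RPM_d7_vavCre and 6290.3 in RPM_d7_WT. Nfkbia, which encodes the inhibitor that traps NF-kB in the cytoplasm, came second in those 7 groups. RPM_TAM_CreERT2 had another order, with Nfkbia at 363 per kb, Il1b at 300 and Il18 at 186. Either Il6 or Il1rn had the lowest mean in every group. Il6 had no read in 3 of 3 RPM_d7_WT libraries, where 3 reads, taken as the floor for a count of 0, equal 1.37 to 2.49 normalised counts. No library of any group held more than 23 Il6 reads, so its differences could not be measured at this depth.

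**Figure D1:**
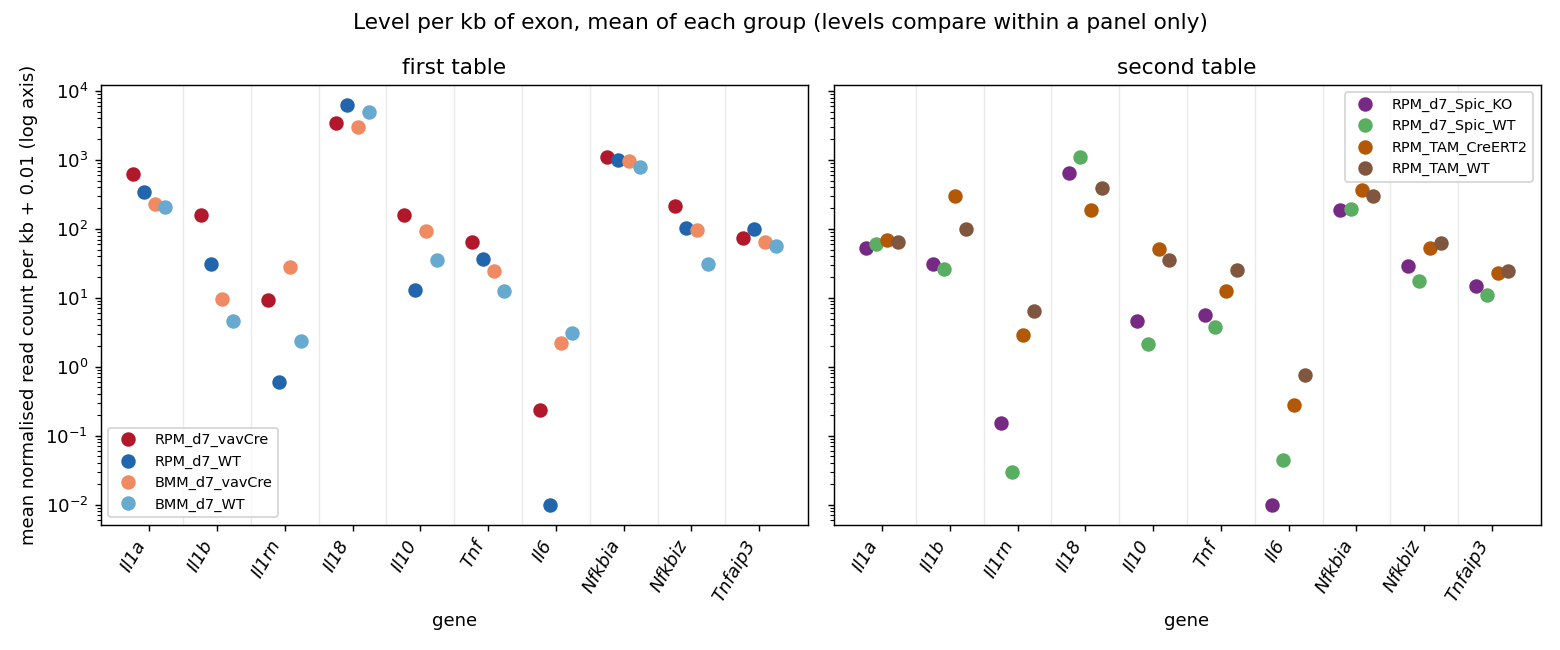
Mean normalised read count per kilobase of exon for each of the 10 genes (dots) in each group, on a logarithmic axis to which 0.01 was added; levels compare within a panel, which holds the groups of 1 table. Il18 and Nfkbia stand at the upper end of every group, with Il1b between them in RPM_TAM_CreERT2, and Il6 is lowest or next to lowest in all.

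The promoters of the 2 most abundant members and of the scarcest cytokine gene are shown because they let the kappa-B element, the DNA motif that NF-kB binds, be set beside these levels. Windows from 250 bases before to 50 bases after the start (RefSeq, GRCm38.p6) were held for 8 of the 10 members, with 11 windows in all. Capitals mark a match to the kappa-B consensus, searched on both strands; each sequence is written 5′ to 3′ on the gene's strand. The windows are chr9:50554450-50554749 (plus) for Il18, chr12:55492598-55492897 (minus) for Nfkbia and chr5:30012864-30013163 (plus) for Il6.
Il18: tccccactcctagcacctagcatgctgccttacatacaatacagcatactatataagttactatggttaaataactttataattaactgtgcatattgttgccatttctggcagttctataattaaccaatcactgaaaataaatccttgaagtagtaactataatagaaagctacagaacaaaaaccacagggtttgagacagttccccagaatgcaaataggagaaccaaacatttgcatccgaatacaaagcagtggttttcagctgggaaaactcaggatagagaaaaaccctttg
Nfkbia: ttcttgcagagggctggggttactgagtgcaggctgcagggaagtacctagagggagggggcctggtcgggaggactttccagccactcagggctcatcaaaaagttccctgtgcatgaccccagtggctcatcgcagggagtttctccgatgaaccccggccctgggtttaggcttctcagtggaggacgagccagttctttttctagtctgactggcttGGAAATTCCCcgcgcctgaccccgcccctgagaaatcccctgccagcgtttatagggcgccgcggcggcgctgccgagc
Il6: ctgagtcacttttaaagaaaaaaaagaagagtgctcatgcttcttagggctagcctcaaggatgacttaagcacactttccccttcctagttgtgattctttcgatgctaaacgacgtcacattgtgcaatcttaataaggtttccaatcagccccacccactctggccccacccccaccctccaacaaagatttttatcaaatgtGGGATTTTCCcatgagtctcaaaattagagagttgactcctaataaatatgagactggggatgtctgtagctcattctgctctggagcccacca
The kappa-B consensus occurred in 3 members: Nfkbia, with the match beginning at -29 from the start, Il6, at -44, and the second of the 2 windows of Tnfaip3, at -12. It occurred in 5.8% of 32851 mouse promoter windows. Il18, the most abundant member, had none of the motifs searched in this window, which ends at 50554749, before its GENCODE start at 50554827. Nfkbia and Il6, at opposite ends of the range of levels, both carried the kappa-B letters. The AP-1 motif TGANTCA was present in 4 members (7.81% of windows), the PU box GAGGAA in Il1a and Tnf (28.3% of windows), and the DR1 motif (copies of AGGTCA 1 base apart, searched as an exact match), bound by receptor pairs of the PPARG type, in 0 members (0.0396% of windows).

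In spleen macrophages of day 7 pups the vavCre libraries had less Il18 and more Il10 and Nfkbiz messenger RNA than the WT libraries. Of the 10 members, 2 rose and 1 fell at an adjusted p under 0.05 (limma on log2 of the value + 1, Benjamini-Hochberg over 15130 genes), where 2.98% of all tested genes rose and 2.54% fell (5.52% together). The median log2 change of the members was 1.00, against -0.02 over all tested genes. In 5 members the values of the 2 groups did not overlap, which held for 24% of all genes.

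Il18, on chromosome 9 (GRCm38, 50554827 to 50581840, plus strand), encodes a cytokine of the interleukin 1 family that drives interferon gamma release. Its normalised counts were 4046, 2983 and 3467 in RPM_d7_vavCre, against 6789, 6700 and 5967 in RPM_d7_WT. Every vavCre library was below every WT library, and the mean fell to 3499 ± 532 in vavCre, against 6485 ± 451 in WT (SD, n = 3 each). The log2 change was -0.90 (95% interval -1.17 to -0.63, limma adjusted p = 0.000149), and it stayed past the threshold with any 1 of the 6 libraries left out. Bco2 and Tex12 overlap Il18 on the opposite strand, and no source states that reads were counted by strand, so their reads may be mixed.

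Il10 (chromosome 1, 131019845 to 131024974, plus strand) encodes the cytokine with which macrophages damp their own inflammatory output. It had 125, 219.6 and 288 normalised counts in RPM_d7_vavCre, against 26.0, 9.97 and 15.5 in RPM_d7_WT. The lowest vavCre library stood well above the highest WT library, and the ratio of the means was 12.3. The log2 change of 3.56 (95% interval 2.31 to 4.81) passed the test (limma adjusted p = 0.000743), as it did without any 1 of the libraries, where the adjusted p reached at most 0.0102.

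Nfkbiz (chromosome 16, 55811375 to 55838899, minus strand) encodes a nuclear inhibitor-like protein that shapes which NF-kB targets are transcribed. Its counts were 936, 1268 and 1065 in RPM_d7_vavCre, against 444, 528 and 576 in RPM_d7_WT. All vavCre libraries were higher, with a log2 change of 1.07 (95% interval 0.45 to 1.70, limma adjusted p = 0.0392). This call was close to the threshold and was lost without any 1 of the 6 libraries, with adjusted p from 0.0618 to 0.177, while the log2 change kept to 0.96 to 1.18.

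The interleukin 1 genes were higher on average without passing the test. Il1a (chromosome 2, 129299610 to 129309972, minus strand), the membrane-bound or alarm form of interleukin 1, had 1387, 1098 and 1267 in RPM_d7_vavCre, against 527, 558 and 949 in RPM_d7_WT. Its groups did not overlap, and the log2 change of 0.93 (95% interval 0.30 to 1.56) had a limma adjusted p of 0.0843, which was 0.0401 without WT replicate 3, the highest WT library. Il1b (chromosome 2, 129364570 to 129371139, minus strand), the form that needs caspase 1, had 211, 417 and 296 in vavCre, against 61.6, 103 and 9.58 in WT. These groups were also apart, the ratio of the means was 5.3, and the log2 change of 2.86 had a wide interval, from 0.68 to 5.04 (limma adjusted p = 0.142). Without WT replicate 3, the lowest library, it was 1.88 (adjusted p = 0.502), and without WT replicate 2, the highest, 3.53 (adjusted p = 0.128). With only the 2 spleen groups in the fit, both Il1a (adjusted p = 0.0103) and Il1b (0.0163) passed in limma, as they did with DESeq2 (0.0365 and 0.0157). Il1bos overlaps Il1b, and Gm14023 overlaps Il1a, each on the opposite strand. Il1rn (chromosome 2, 24336853 to 24351494, plus strand), the decoy ligand that blocks the interleukin 1 receptor, had 58.9, 93.3 and 0 in vavCre, against 0.604, 8.31 and 0.913 in WT. The vavCre libraries thus held 96, 110 and 0 reads of it, and the limma adjusted p was 0.406 with replicate 3, the empty library, and 0.0198 without it. With all libraries kept, the adjusted p was 0.00965 with DESeq2 and 0.0688 with edgeR.

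The remaining cytokine genes and inhibitors overlapped between the groups. Tnf (chromosome 17, 35199381 to 35202007, minus strand), the ligand of the TNF receptors, had 89.0, 69.5 and 157 in RPM_d7_vavCre, against 40.5, 120.5 and 15.97 in RPM_d7_WT. Nfkbia (chromosome 12, 55489410 to 55492647, minus strand) had 2156, 1470 and 1722 in vavCre, against 1616, 1513 and 1648 in WT, with a 95% interval for the log2 change of -0.21 to 0.50. Tnfaip3 (chromosome 10, 19000910 to 19015657, minus strand), which encodes the ubiquitin-editing enzyme A20 that ends signalling from these receptors, had 389.7, 657 and 569.6 in vavCre, against 711, 631 and 784 in WT. Its interval ran from -1.11 to 0.26. Il6 (chromosome 5, 30013114 to 30019981, plus strand), the cytokine of fever and the acute phase, held 0, 1 and 1 reads in vavCre, against 0 in each WT library. Tnf and Nfkbia are known for messages of fast turnover, and both hold the AU-rich nonamer TTATTTATT, an element through which messages are degraded, in the 3′ UTR. Each is shown as 30 bases of the GRCm38 genome on the gene's strand, minus in both, with 1 nonamer in capitals.
Tnf, chr17:35199688-35199717: tttgcacttaTTATTTATTatttatttatt
Nfkbia, chr12:55489607-55489636: ggaccacgttTTATTTATTgtgcttttgat
Tnf held 5 such nonamers and Nfkbia held 1. The nonamer occurred in the 3′ UTR of 7.56% of 21037 genes.

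**Figure D2:**
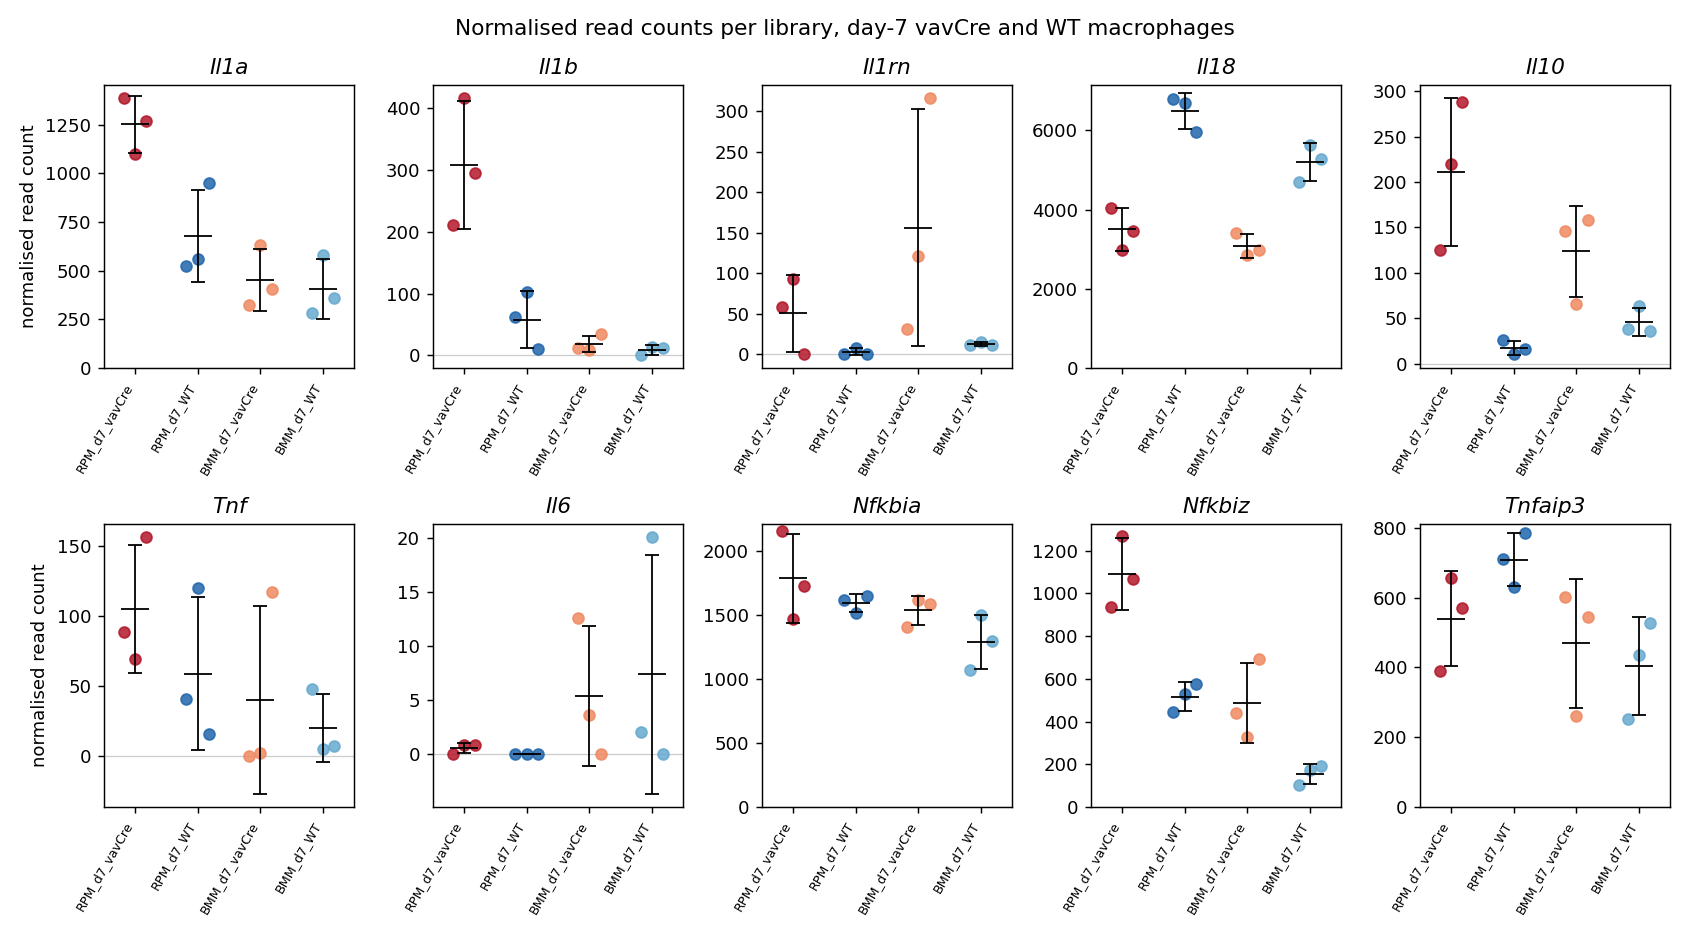
Normalised read count of each member in each library (dots) of the vavCre and WT groups of spleen and marrow, with the group mean and SD as black bars; each panel is 1 gene with its own linear axis from the first table. Il18 is lower in all vavCre libraries of both tissues, and Nfkbiz is higher in all of them, while the single high or empty libraries of Il1rn and Tnf are visible as lone dots.

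Other cell types' markers moved in the same spleen libraries. The 12 neutrophil markers, all above 0 in both groups, summed to 2558 to 5691 in RPM_d7_vavCre, against 322 to 2427 in RPM_d7_WT. The 7 megakaryocyte and platelet markers summed to 9253 to 14306 in vavCre (6 of 7 above 0, Gp6 at 0), against 695 to 953 in WT (7 of 7 above 0). The 12 erythroblast markers, all above 0, summed to 119565 to 170382 in vavCre, against 228546 to 338804 in WT, and the 10 red pulp markers to 153931 to 174417, against 201203 to 230362. Their part in the Il18, Il10 and interleukin 1 values was not tested. In sorted bulk libraries, fewer cells of a type and less RNA per cell cannot be told apart.

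In bone marrow the vavCre libraries again had less Il18 and more Nfkbiz than the WT libraries. Here 1 member rose and 1 fell, where 3.41% of tested genes rose and 4.4% fell (7.81% together), and the median log2 change was 0.23, against -0.04 over all genes. The groups were apart in 4 members, and in 19.8% of all genes. Il18 had 3410, 2853 and 2978 in BMM_d7_vavCre, against 4690, 5630 and 5275 in BMM_d7_WT, with a mean of 3080.3 ± 292 in vavCre and 5198 ± 475 in WT (SD, n = 3 each). The log2 change was -0.75 (95% interval -1.03 to -0.48, limma adjusted p = 0.00092). Nfkbiz had 442, 326 and 695 in vavCre, against 103, 174 and 190.2 in WT, a log2 change of 1.62 (95% interval 1.00 to 2.24, limma adjusted p = 0.00169). Both calls held with any 1 library left out.

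Il10 and Il1rn were higher in every marrow vavCre library and did not pass the test. Il10 had 146, 65.5 and 158 in BMM_d7_vavCre, against 38.2, 63.1 and 35.5 in BMM_d7_WT, so the groups were apart by a small gap (log2 change 1.36, limma adjusted p = 0.197). Il1rn had 31.4, 121 and 317 in vavCre, against 12.1, 15.8 and 11.5 in WT. Its vavCre libraries differed widely among themselves, and the limma adjusted p was 0.234, against 0.0192 with DESeq2. Tnf had 0, 2.42 and 118 in vavCre, against 48.3, 5.26 and 7.32 in WT, and in each group 1 library stood far above the others, with 52 reads against 0 and 2 in vavCre and 24 against 6 and 7 in WT. Its log2 change was -0.89 in limma and 1.02 with edgeR, so no direction is given. The remaining members overlapped between the marrow groups. Il1a had 322, 630.3 and 405 in vavCre, against 282, 579.9 and 358 in WT. Il1b was low, at 12.6, 8.48 and 34.0 in vavCre, against 0, 14.02 and 12.5 in WT. With 6, 7 and 15 reads in vavCre and 0, 16 and 12 in WT, an Il1b difference was not detectable in marrow at this depth. Nfkbia had 1407, 1612 and 1587 in vavCre, against 1070, 1498 and 1293 in WT, and Tnfaip3 had 603, 259 and 543, against 251, 435 and 528. Il6 held 6, 3 and 0 reads in vavCre, against 1, 23 and 0 in WT.

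Marker levels differed between the marrow groups as well. The 10 red pulp macrophage markers, all above 0, summed to 85716 to 96893 in BMM_d7_vavCre, against 129406 to 134369 in BMM_d7_WT. The 7 megakaryocyte and platelet markers summed to 15909 to 17884 in BMM_d7_vavCre (5 of 7 above 0, Gp6 among those at 0), against 2645 to 4148 in BMM_d7_WT (6 of 7 above 0, Gp6 at 0). The erythroblast markers, 12 of 12 above 0, summed to 94562 to 137265 in vavCre, against 235244 to 347021 in WT, and the 8 monocyte markers, all above 0, to 371 to 566, against 739 to 1016. The 8 B cell markers, all above 0, summed to 1151 to 2698 in vavCre, against 3522 to 9668 in WT. The neutrophil sums overlapped, at 1442 to 2085 in vavCre and 973 to 4302 in WT. The part of these cells in the member values was not tested.

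**Figure D3:**
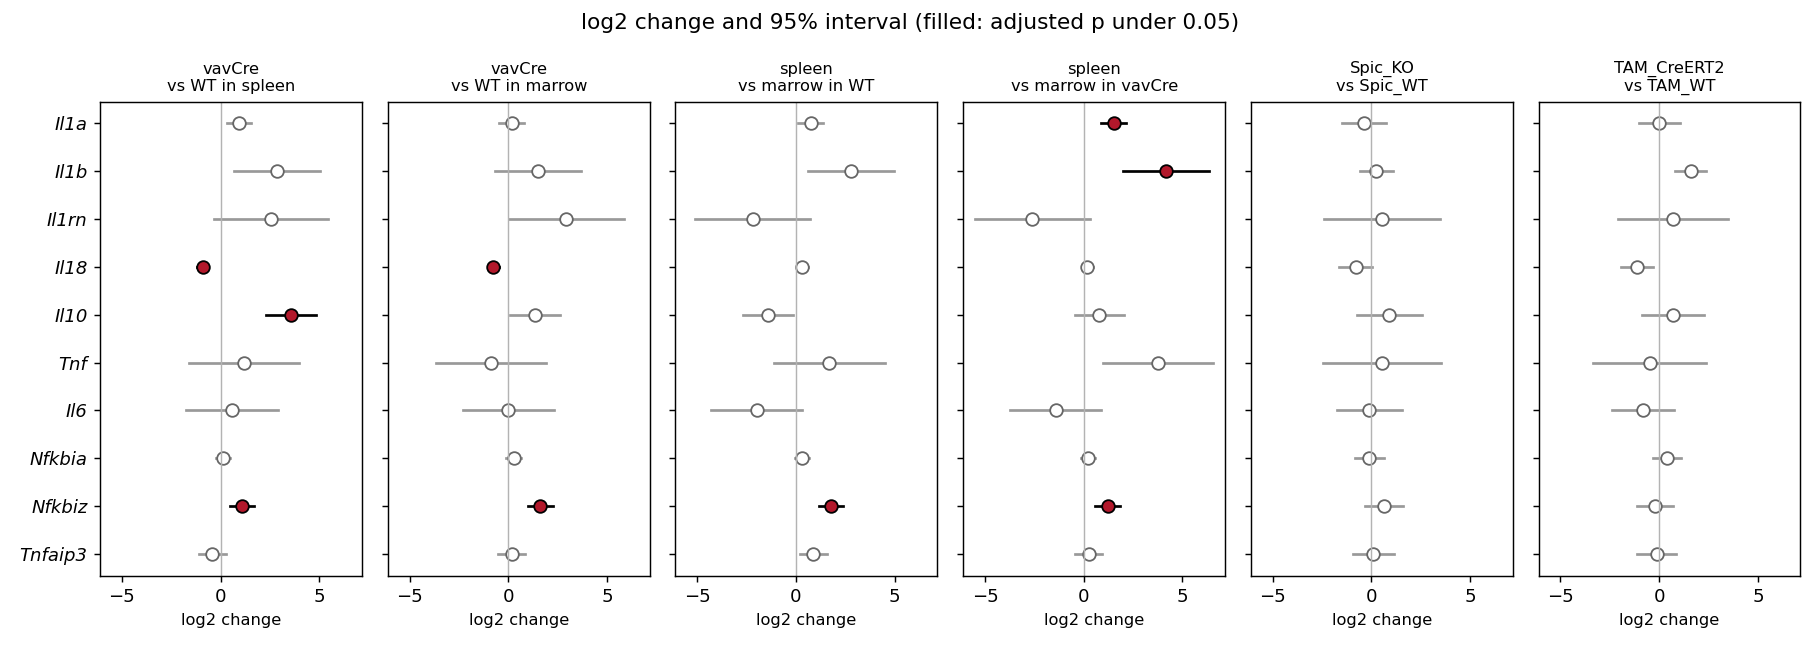
log2 change (dots) with its 95% interval (lines) of each member in 6 comparisons, from limma on log2 of the normalised count + 1; red filled dots passed an adjusted p under 0.05 over all tested genes. The Il18 intervals lie below 0 and the Nfkbiz intervals above 0 in both vavCre comparisons, and no dot is red in the Spic_KO and CreERT2 comparisons.

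The difference between the spleen and marrow effects of vavCre was tested as an interaction. No member passed in limma, edgeR or DESeq2, where 0.119% of all genes did in limma (0.112% with a positive and 0.00661% with a negative difference), and 1 member had an unadjusted p under 0.05. That member was Il10, whose effect was larger in spleen by 2.20 on the log2 scale (95% interval 0.43 to 3.97, limma adjusted p = 0.683). For Il18 the difference was -0.14 (95% interval -0.53 to 0.24) and for Nfkbiz -0.55 (95% interval -1.42 to 0.33).

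Between tissues, Nfkbiz was higher in spleen than in marrow macrophages in both genotypes, and Il1a and Il1b passed the test in vavCre. These comparisons use the same libraries as those above. In WT, 1 member rose in spleen and 0 fell, where 2.07% of genes rose and 1.82% fell (3.89% together). Nfkbiz was 3.31-fold higher by the means of RPM_d7_WT and BMM_d7_WT, a log2 change of 1.76 (limma adjusted p = 0.00155). The WT groups were apart in 6 members (20.6% of genes). Among them Il10 was lower in spleen, at 17.2 ± 8.13 in RPM_d7_WT and 45.6 ± 15.2 in BMM_d7_WT (log2 change -1.41, limma adjusted p = 0.245). In the same libraries the red pulp macrophage markers (10 of 10 above 0) summed to 201203 to 230362 in RPM_d7_WT, against 129406 to 134369 in BMM_d7_WT. The megakaryocyte and platelet markers summed to 695 to 953 in spleen (7 of 7 above 0), against 2645 to 4148 in marrow (6 of 7 above 0, Gp6 at 0), and their part in the Nfkbiz and Il10 values was not tested.

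In vavCre, 3 members rose in spleen and 0 fell, where 2.68% of genes rose and 0.82% fell (3.5% together), and the groups were apart in 3 members (19.5% of genes). Il1a averaged 1251 ± 145 in RPM_d7_vavCre and 453 ± 159 in BMM_d7_vavCre (log2 change 1.51, limma adjusted p = 0.00598), and this call held with any 1 library left out. Il1b averaged 308 ± 104 in spleen and 18.3 ± 13.7 in marrow (SD, n = 3 each), a ratio of 16.8 (log2 change 4.17, limma adjusted p = 0.0304). Nfkbiz averaged 1089.6 ± 167 in spleen and 488 ± 189 in marrow (log2 change 1.22, limma adjusted p = 0.0266). The Il1b and Nfkbiz calls were each lost on leaving out any 1 library but BMM_d7_vavCre replicate 3, with adjusted p up to 0.115 for both. Without that replicate, Tnf passed as well as Il1a, Il1b and Nfkbiz (Tnf log2 change 5.76, limma adjusted p = 0.00554, against 0.145 with it). The neutrophil markers summed to 2558 to 5691 in RPM_d7_vavCre (12 of 12 above 0), against 1442 to 2085 in BMM_d7_vavCre (10 of 12 above 0, Elane and Ly6g at 0), and their part in the Il1b difference was not tested.

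In the second table the levels of day 7 spleen macrophages labelled Spic_KO were set against Spic_WT. No member passed in limma, edgeR or DESeq2, where 1.47% of all genes rose and 2.48% fell in limma (3.95% together), and 0 members had an unadjusted p under 0.05. The 658 genes called in all became 261 without Spic_WT replicate 1, 355 without Spic_WT replicate 2, 316 without Spic_WT replicate 3, 1972 without Spic_KO replicate 1 and 297 without Spic_KO replicate 2, while the members called stayed at 0. Il18 had 529.6 and 784 in RPM_d7_Spic_KO, against 1244, 1069 and 1065 in RPM_d7_Spic_WT, so both libraries labelled Spic_KO were below the 3 others (log2 change -0.80, 95% interval -1.65 to 0.05, limma adjusted p = 0.306). Nfkbiz had 99.6 and 189, against 79.4, 84.4 and 98.4 in Spic_WT, apart by a narrow gap (log2 change 0.65, 95% interval -0.31 to 1.61). In these 2 members the groups did not overlap, as in 34.2% of all genes. The 2 libraries labelled Spic_KO differed from each other in the inhibitor genes, with 39.5 and 178 counts of Tnfaip3, against 78.9, 81.6 and 75.7 in Spic_WT, and 215 and 393 of Nfkbia, against 380.4, 278 and 291.

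The other members were low or overlapped in this set. Il1a had 47.6 and 158 in RPM_d7_Spic_KO, against 182, 91.1 and 87.7 in RPM_d7_Spic_WT, and Il1b had 68.6 and 49.1, against 65.0, 34.7 and 51.1. Il10 had 8.01 and 4.14 in Spic_KO, against 4.30, 2.45 and 1.62 in Spic_WT, from 5 to 17 reads a library. Tnf had 14.02 and 4.14, against 2.27, 11.9 and 4.21. Il1rn held 0 and 3 reads in Spic_KO, against 0, 0 and 1 in Spic_WT, and Il6 held 0 and 0, against 1, 0 and 0, so neither can be compared. The neutrophil markers summed to 196 to 349 in Spic_KO (10 of 12 above 0, Elane and Ly6g at 0), against 28.8 to 59.6 in Spic_WT (8 of 12 above 0, with Mmp8 and Mmp9 also at 0). Megakaryocyte and platelet markers summed to 1055 to 1548 in Spic_KO (4 of 7 above 0, Gp6 and Ppbp among those at 0), against 65.7 to 115 in Spic_WT (6 of 7 above 0, Gp6 at 0). Red pulp macrophage markers summed to 11111 to 11602 in Spic_KO, against 22409 to 32367 in Spic_WT, and their part in the Il18 values was not tested.

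In adult spleen Il1b was the 1 member whose groups did not overlap, which 13.7% of all genes did not. It had 543, 787, 561 and 398 in RPM_TAM_CreERT2, against 238 and 140.3 in RPM_TAM_WT, with a mean of 572 ± 161 (SD, n = 4) in CreERT2 and 189 ± 69.4 (SD, n = 2) in WT. All CreERT2 libraries were higher, and the log2 change was 1.60 (95% interval 0.81 to 2.39, limma adjusted p = 0.145). The adjusted p was 0.0155 with only the adult groups in the fit and 0.0035 with DESeq2. No member passed the test in edgeR or in limma with all groups of the table in the fit. Of all genes, 0.0601% rose and 0.0841% fell in that limma fit (0.144% together). Among the members, DESeq2 called Il1b alone. At an unadjusted p under 0.05 there were 2 members, Il1b and Il18. Il18 had 156, 82.0, 224 and 304 in CreERT2, against 278 and 522 in WT (log2 change -1.14, 95% interval -1.95 to -0.33, limma adjusted p = 0.442), and the groups overlapped.

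The 2 adult WT libraries differed from each other in several other members. Il10 had 64.7, 64.3, 63.0 and 73.2 in RPM_TAM_CreERT2, against 68.6 and 23.9 in RPM_TAM_WT. Nfkbia had 649.7, 702, 551 and 435 in CreERT2, against 669.6 and 284 in WT. Nfkbiz had 375, 122, 261 and 307 in CreERT2, against 433 and 184 in WT. In each of these, WT replicate 1 was the higher of the pair and lay within or near the CreERT2 range. Tnf had 29.5, 0, 35.8 and 17.98 in CreERT2, against 80.0 and 2.53 in WT, and Il1rn had 11.4, 19.9, 29.2 and 3.85, against 70.2 and 0. Tnfaip3 had 222, 126, 174 and 135 in CreERT2, against 218 and 138 in WT, and Il1a had 175, 70.9, 196 and 107, against 144 and 110.3. Neither gene showed a separation of the groups. Il6 held 0, 0, 0 and 2 reads in CreERT2, against 4 and 1 in WT. In the same libraries erythroblast markers (12 of 12 above 0) summed to 195656 to 358264 in CreERT2, against 117353 to 170447 in WT, and monocyte markers (8 of 8 above 0) to 231 to 525, against 642 to 891. Neutrophil markers overlapped, at 150 to 776 in CreERT2 (12 of 12 above 0) and 24.5 to 993 in WT (10 of 12 above 0, Elane and Ly6g at 0), and the part of these cells in the Il1b values was not tested.

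**Figure D4:**
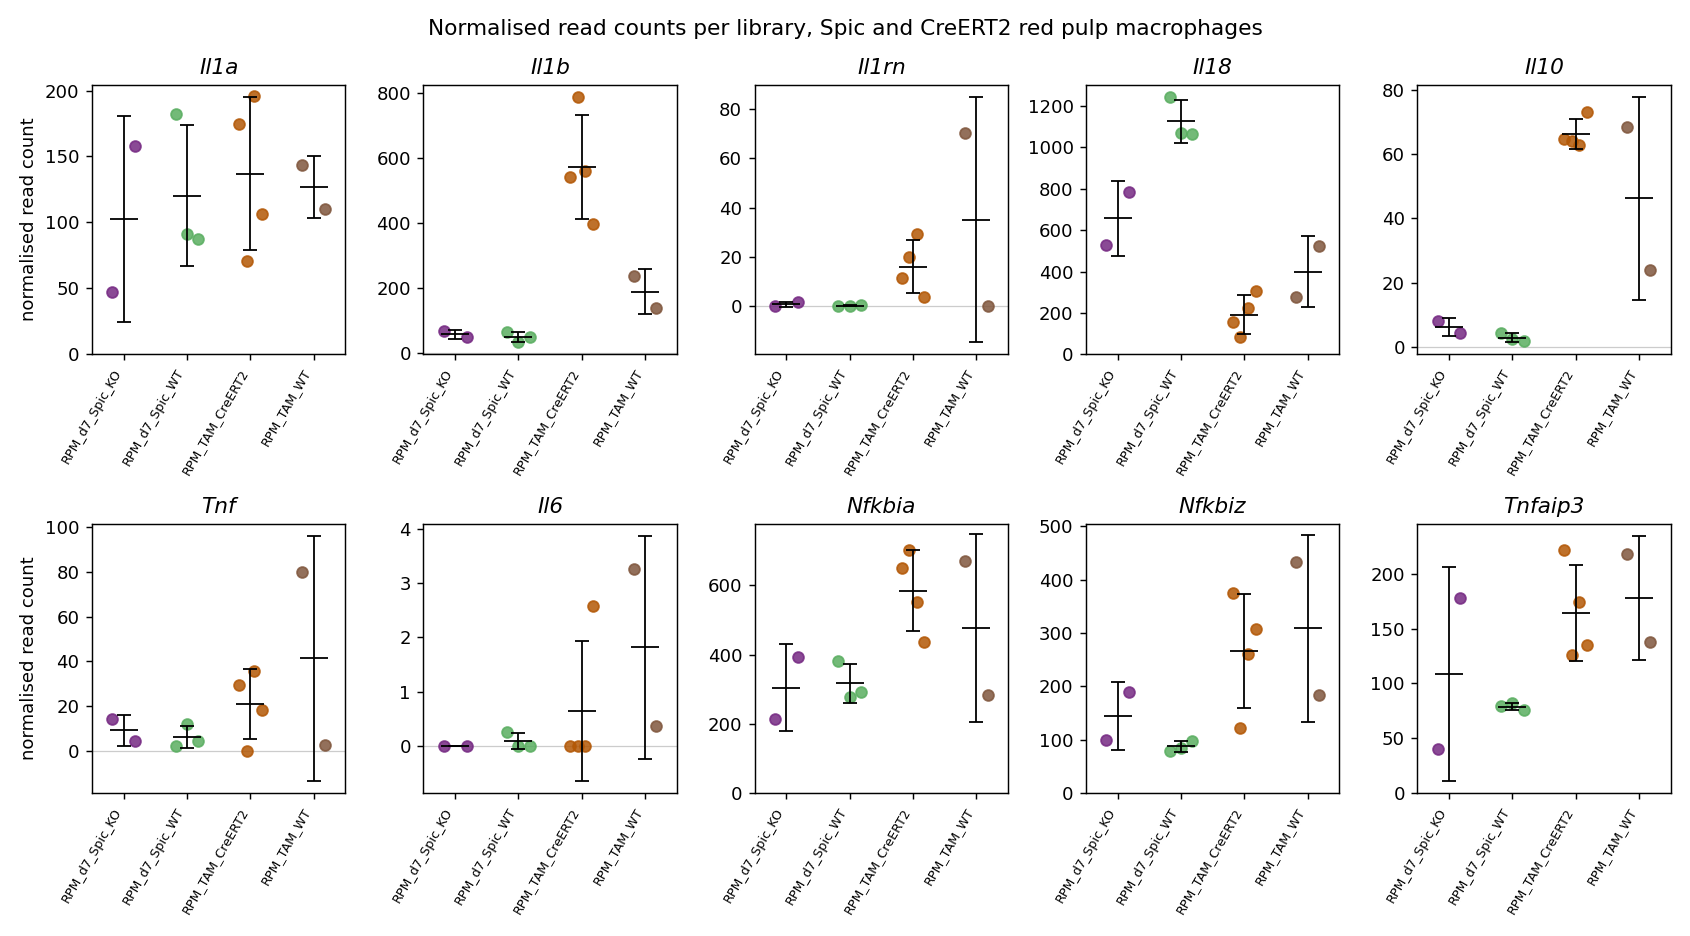
Normalised read count of each member in each library (dots) of the Spic_KO, Spic_WT, CreERT2 and adult WT groups, with the group mean and SD as black bars; each panel is 1 gene with its own linear axis from the second table. Il1b is higher in all 4 CreERT2 libraries than in both adult WT libraries, and Il18 is lower in both Spic_KO libraries than in all Spic_WT libraries.

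Around the members, 7 lists with 117 other genes of the pathway were counted, of which 109 were tested in each table. In spleen vavCre 7 rose and 3 fell, where 2.98% of all genes rose and 2.54% fell, and in marrow vavCre 9 rose and 2 fell, where 3.41% rose and 4.4% fell. The median log2 change over the 109 genes was 0.10 in each tissue, against -0.02 in spleen and -0.04 in marrow over all genes. The lists moved in few members: of 22 adaptors and kinases upstream of NF-kB, 0 passed in either tissue in limma. Nfkb1, which encodes the p105 precursor and p50 subunit, fell in spleen vavCre, to 937 ± 65.5 against 1669 ± 140.4 in WT (SD, n = 3 each; log2 change -0.83, limma adjusted p = 0.00187). It was the 1 of 9 NF-kB and inhibitor family genes to pass there. Among other feedback inhibitors, Tnfaip8l2, a brake on immune receptor signalling, rose in spleen (log2 change 0.97, limma adjusted p = 0.0206) and in marrow (1.21, adjusted p = 0.00341).

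Of the 15 tested enzymes and surface proteins induced by NF-kB, 4 rose and 1 fell in spleen vavCre (2.98% and 2.54% of all genes). In marrow vavCre 4 rose and 2 fell (3.41% and 4.4%). The median log2 change of the 15 genes was -0.30 in spleen and 0.70 in marrow, against -0.02 and -0.04 over all genes. Tlr2, the receptor for bacterial lipoproteins, averaged 1329.7 ± 277 in spleen vavCre and 566 ± 152 in WT (SD, n = 3 each; log2 change 1.25, limma adjusted p = 0.000767), and in marrow its log2 change was 0.86 (adjusted p = 0.0148). Ier3, an early response gene, rose in spleen (log2 change 1.35, limma adjusted p = 0.0135) and in marrow (1.53, adjusted p = 0.00447). Cd44, the hyaluronan receptor, fell in spleen, to 6295 ± 256 in vavCre against 12110 ± 589 in WT (log2 change -0.94, limma adjusted p = 3.69e-06), and in marrow by 0.71 on the log2 scale (adjusted p = 0.000104). Among cytokine receptors and decoys, Tnfrsf1a, the main TNF receptor, rose in spleen (log2 change 0.57, limma adjusted p = 0.0409), and Tnfrsf1b (0.73, adjusted p = 0.0137) and Il6st (1.07, adjusted p = 0.011) rose in marrow. In the list of inflammasome and cytokine release genes, 0 of 10 passed in spleen and 2 rose in marrow: Gsdmd, the pore through which mature interleukin 1 leaves the cell (log2 change 1.12, limma adjusted p = 0.00751), and Adam17, the protease that sheds TNF (0.93, adjusted p = 0.00792).

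Between tissues, 8 of the 109 pathway genes rose in spleen and 2 fell in WT (2.07% and 1.82% of all genes), and 8 rose and 2 fell in vavCre (2.68% and 0.82%). Of 22 other feedback inhibitors, 3 rose in WT and 4 in vavCre. Dusp1, a phosphatase that switches off stress kinases, averaged 3797 ± 1623 in RPM_d7_WT and 262 ± 26.3 in BMM_d7_WT (SD, n = 3 each; log2 change 3.77, limma adjusted p = 5.72e-06), with a log2 change of 4.33 in vavCre (adjusted p = 8.53e-07). Atf3, a repressor of cytokine genes, and Zfp36, whose product binds the AU-rich nonamer and speeds the decay of Tnf messages, were also higher in spleen in WT (log2 changes 3.83 and 1.67, limma adjusted p = 0.00011 and 4.83e-05) and in vavCre (3.42 and 1.93, adjusted p = 0.000309 and 7.84e-06). Il18bp, the soluble trap for interleukin 18, was higher in spleen as well, at 3469 ± 807 in RPM_d7_WT and 1884 ± 99.6 in BMM_d7_WT (log2 change 0.85, limma adjusted p = 0.0393).

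In the libraries labelled Spic_KO, 2 of the 109 pathway genes rose and 3 fell, where 1.47% of all genes rose and 2.48% fell, so the share called was near that of all genes. In CreERT2 0 passed in limma, where 0.144% of all genes did. Il18bp fell to 148 ± 120.3 (SD, n = 2) in Spic_KO, against 531 ± 89.7 (SD, n = 3) in Spic_WT (log2 change -2.11, limma adjusted p = 0.00672). Casp1, the protease that matures interleukins 1 beta and 18, fell to 91.3 ± 6.87 in Spic_KO, against 253 ± 71.3 in Spic_WT (log2 change -1.42, limma adjusted p = 0.0368). Adam17 rose to 361 ± 7.71 in Spic_KO, against 144 ± 11.8 in Spic_WT (log2 change 1.32, limma adjusted p = 0.0341).

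Across the 12 libraries of the first table, the members did not vary as 1 block. Described by Pearson's r of log2 values, Il1b and Nfkbiz ran together (0.87), as did Il1a with Nfkbia (0.78), Nfkbiz (0.74) and Il1b (0.73), while Il10 ran opposite to Il18 (-0.84). These points share genotype, tissue and depth, since the spleen libraries were the deeper ones. Outside the list, the gene most like Il18 was Gpx1, which encodes a glutathione peroxidase (r = 0.97), and the gene most like Il10 was Sepp1, which encodes a selenium-carrying plasma protein (r = 0.94). Il1a was most like Tmem59 (0.97) and Cd68, a macrophage lysosome marker (0.96), and Nfkbiz was most like Hgsnat (0.95), followed by Gdpd1 (0.95) and by Csf1r, the receptor for the macrophage growth factor CSF1 (0.94). Il1b was most like Icos (0.93), Pirb (0.91) and Casp4 (0.90), the last being the protease that senses bacterial lipopolysaccharide inside the cell.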

How the data were processed

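Per the labels' protocols, polyadenylated RNA of the sorted cells was primed with oligo-dT and the PCR product was tagmented. The submitters' processing notes name STAR, edgeR and the GRCm38 build, with no version or role for any of them. The deposited values are a signal scaled per library. In each library 96.6 to 100% of values up to 500 reads were whole multiples, to within 0.1 read, of a single step, so they are normalised counts and not raw counts. All sample columns were used.

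Groups came from the labels. The design named a count test for raw counts and limma for normalised values, and limma was used. A gene was tested where 2 or more libraries had a value of 1 or higher (15130 and 16650 genes), and all 10 members passed in both. limma 3.58.1 (R 4.3.3, intensity trend, robust) was fitted to log2(value + 1) over all groups of a table, leaving 8 and 7 residual degrees of freedom. The pseudocount understates changes of low genes. An adjusted p (Benjamini-Hochberg) under 0.05 was a call. Members, lists and alternatives were chosen with earlier results of these data known. The text names the 10 members, Pparg, Spic, called genes of the pathway lists (up to 4 per list with the smallest p) and, for members with a mean of at least 10, the genes of highest Pearson's r (mean of at least 20).

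Alternatives were no filter, a filter of 10, pseudocounts of 0.1 and 5, a size limit of 1 on the log2 change, a fit of the compared groups alone, edgeR 4.0.16 and DESeq2 1.42.0 on recovered reads, the replicate number as a block and each library left out. With edgeR (TMM) on the recovered reads, 882 genes were called in spleen vavCre, 1033 in marrow vavCre, 997 in Spic_KO and 34 in CreERT2. On simulated data, 4-fold changes were called in 67 of 100 genes in spleen vavCre and 77 in marrow vavCre. The counts were 26 in Spic_KO and 32 in CreERT2. For 2-fold changes they were 27, 28, 2 and 4 of 100 in the same order. Only genes with a mean of at least 20 over the libraries of a table were changed. The values of 1 marker gene and 1 sequence are not reported here. Coordinates and exon lengths are those of GENCODE vM21, which held 22214 and 25587 of the table identifiers. Floors of 3 reads cover counting error only, since PCR copies of a molecule cannot be recognised here.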

Additional observations from a re-analysis of the deposited data

Results flagged for a closer look

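Of the 10 members in RPM_TAM_CreERT2, the 1 group with 4 libraries, a library stood apart from its group in 2, and chance gives this in about 1 group of 20. Il10 had 73.2 normalised counts in CreERT2 replicate 5, where the others lay between 63.0 and 64.7, so the gap is small beside the level. Il6 had 2.57 in the same replicate, from 2 reads, and 0 in the other 3 libraries, a value below the floor of 3 reads. With the other 3 libraries at 0, any read would stand apart, so the rate of 1 in 20 does not apply to Il6.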

How the results depend on the processing

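No member that passed the test in limma or in an alternative changed direction. The 3 members called in spleen vavCre became 5 with the compared groups only and 6 with DESeq2, and 2 to 3 with 1 library left out. With an absolute log2 change of at least 1, Il18 (log2 change -0.90) was no longer called in spleen vavCre. The 2 of marrow vavCre became 1 with an absolute log2 change of at least 1, which Il18 does not reach, and stayed at 2 with any library left out. The 1 of spleen against marrow in WT became 2 with DESeq2. The 3 of the vavCre tissue comparison ranged from 1 to 4 with 1 library left out. The 0 of CreERT2 became 1 with the compared groups only and with DESeq2. The cause was not tested. With no filter, Nfkbiz in spleen vavCre (adjusted p = 0.0604) and Il1b between vavCre tissues (0.0577) no longer passed. Among 1143 values over all settings, 55 of members not called changed sign. Same-numbered libraries did not deviate together. Their r ran from -0.0966 to 0.0936 over 18 pairs in the first table, and from -0.0545 to 0.0447 over 10 in the second. With so few libraries in a group, this check cannot exclude pairing, and the labels do not say whether the numbers pair libraries. A replicate block changed no member's call, leaving 3 calls for vavCre in spleen, 2 for vavCre in marrow, 1 and 3 for spleen against marrow in WT and vavCre and 0 for Spic_KO and the interaction, and took all genes called in Spic_KO to 219, against 658. CreERT2 and adult WT share 1 number, so no block could be made there. DESeq2 moved the all-gene median of CreERT2 to 0.11 on the log2 scale; a filter of 10 and the compared groups only moved that of Spic_KO to -0.15 and -0.17. Depth limits Il6. For Il1rn and Tnf, the spread between libraries of a group was wide.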
